A study of Homo sapiens with 2 samples.

Results

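The early class is the second of 6 replication timing classes into which nascent strand intervals of U2OS cells had been sorted. It was taken as every interval of the early list, each name counted once from its lowest start to its highest end, on chromosomes 1 to 22 and X. This gave 41882 of 161770 intervals, or 25.9% (exact 95% binomial interval 25.7% to 26.1%, for counting error only). The early list held 41887 names on 41888 lines. The 5 names left out lay on chromosome Y.

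U2OS is an osteosarcoma cell line from bone. Wild-type cells were arrested before S phase by a double thymidine block and collected 2 hours after release, and nascent strands were then size-selected and digested with exonuclease. The 2 libraries belong to this single group, with no other genotype, treatment or time beside them. They were deposited as 1 intersected peak set, in which the peak values are those of replicate 1 alone. Every fold below therefore rests on 1 library, no value can be compared between the libraries, and every spread below is between chromosomes and not between biological replicates. No label says whether the libraries came from separate cultures. The number of reads behind each interval is unknown.

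DNA replication starts at many sites that are licensed in G1 and fire in S phase in a reproducible order. Gene-rich, open chromatin usually replicates early, and gene-poor, compact chromatin late. Short nascent strands carry an RNA primer at their 5′ end that shields them from lambda exonuclease, so their enrichment marks places where synthesis began. Cells collected 2 hours after release have begun S phase recently, and early replicating DNA is where initiation is normally found at that stage. The timing classes were assigned by the submitters, and the timing data behind them were not given.

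Early intervals were short stretches of DNA, most of them close to another interval. Their median width was 587 bp, with quartiles of 311 and 1105 bp and a longest interval of 19138 bp. Together they covered 38.0 Mb, or 26.6% of the 143 Mb in all classes. The median fold enrichment was 4.81, with quartiles of 3.82 and 6.51. The fold is the authors' value for the replicate 1 peak that shares most bases with the interval, and none from replicate 2 was analysed here. The median distance to the nearest interval of any class was 1242 bp, and 17987 early intervals (42.9%) had a neighbour within 1 kb, close to the 41.03% of all intervals. A neighbour within 5 kb was found for 82.3% of early intervals, against 78.1% of all intervals. Peak pieces shared by both libraries covered a median of 60.3% of an early interval. No peak overlapped 44 early intervals, which therefore have no fold.

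Among early intervals, those that lay close together were wider and more enriched than those that stood alone. Intervals with a neighbour less than 500 bp away (6803) had a median width of 798 bp and a median fold of 5.32. Those between 2 and 5 kb from a neighbour (7847) had 511 bp and 4.55-fold, and those between 10 and 50 kb (3569) had 383 bp and 4.27-fold. The 506 intervals at 50 kb or more were the narrowest, at 341 bp, but their fold of 4.43 was above that of the group before them. Rank correlation between distance and width over 41882 early intervals was −0.26, and between distance and fold, over the 41838 with a fold, −0.18. Both were negative on each of 23 chromosomes, from −0.31 to −0.16 for width and from −0.27 to −0.082 for fold. Neighbouring intervals share the same libraries and the same local read depth, so these correlations are descriptions.

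Wider early intervals also carried higher folds. The median fold rose from 3.90 below 200 bp (4331 intervals) to 4.73 between 500 bp and 1 kb (11847) and 7.95 at 3 kb or more (1708). The rank correlation of width and fold was 0.42 and ranged from 0.21 to 0.49 over the 23 chromosomes. The share of bases in shared pieces did not follow this order. It was highest in the narrowest intervals, at 73.3%, lowest between 500 bp and 1 kb, at 53.2%, and 65.3% at 3 kb or more. Broad intervals were usually broken up. No early interval under 500 bp held more than 1 shared piece, whereas 35.2% of those between 1 and 2 kb and 91.7% of those of 3 kb or more held at least 2. A narrow interval has little room for a second piece, and how far this contrast follows from width alone was not tested. Over all early intervals 6693 (15.98%) held at least 2 pieces, against 15.4% over all classes, and the most was 11.

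**Figure D1:**
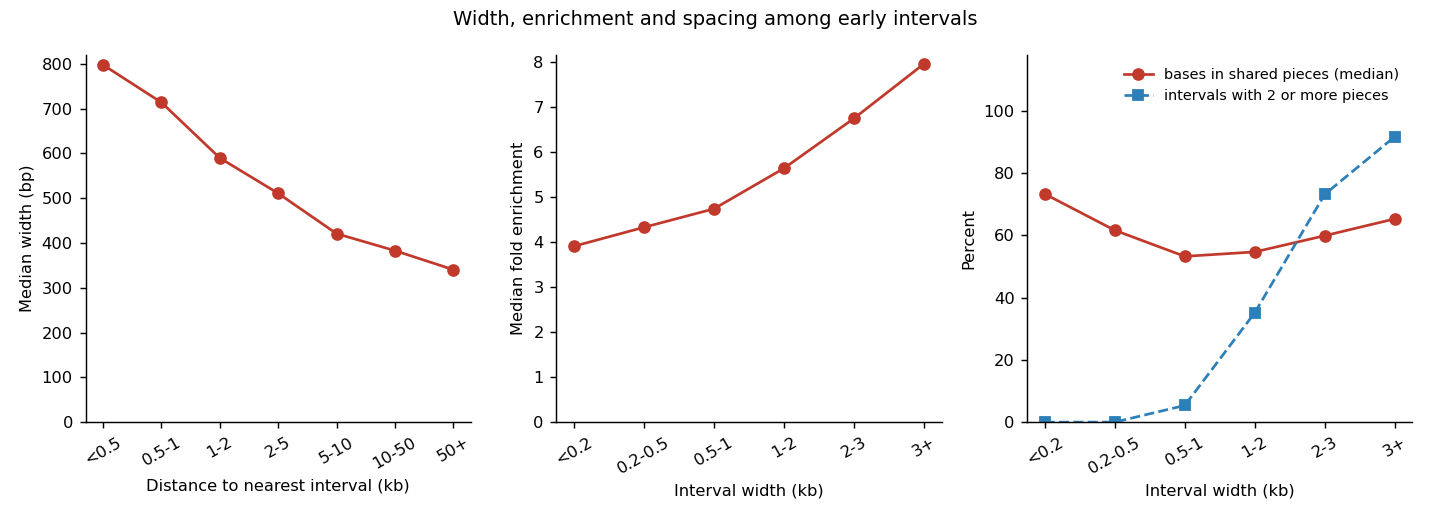
Median width of early intervals by distance to the nearest interval (left), and median fold enrichment (middle) and shared pieces (right) by interval width, each point being 1 bin of the 41882 early intervals. Width falls from 798 bp at distances under 500 bp to 341 bp at 50 kb or more, fold rises from 3.90 to 7.95 with width, and the share of intervals with at least 2 pieces rises to 91.7%.

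The most enriched early intervals stood far above the median. All 5 lay inside stretches of early intervals, as most of the class did. Over all early intervals, 87.9% of sides faced another early interval. Positions are in hg19, and the genes and sequence at these positions were not analysed here. The highest fold was 198, at chr16:29319950-29321945, an interval of 1996 bp that ranked 7th over all classes. Shared pieces covered only 38.3% of it. The next was a 3771 bp interval at chr20:62465674-62469444, with a fold of 144 and 3 shared pieces. An interval at chr1:12030586-12031790 had a fold of 115, with early neighbours 788 and 792 bp away. The fourth, at chr2:242509293-242512044, had a fold of 112 and was almost wholly shared, with 99.2% of its 2752 bp in 1 piece. It belonged to an unbroken series of 45 early intervals. The fifth, at chr20:1206067-1207230, had a fold of 105 and a neighbour 795 bp away on one side but 40297 bp away on the other.

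Folds of this size were rare. Only 355 early intervals (0.848%, exact 95% interval 0.762% to 0.940% for counting error only) reached 20-fold, and 3168 (7.56%) reached 10-fold. Over all classes the corresponding shares were 0.899% and 7.16%. On single chromosomes the share of early intervals at 20-fold ran from 0% on chromosome 21 to 1.93% on chromosome 19. With all intervals ranked by −log10 q, the authors' measure of peak significance, the early class made up 24.2% of the lowest 10% and 27.4% of the highest 10%. Weak and strong peaks were thus both represented close to the share of 25.9%.

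The widest early intervals had folds above the class median of 4.81 but far below those of the 5 most enriched. The widest spanned 19138 bp at chr9:139900903-139920040, ranked 5th in width over all classes, and held 11 shared pieces with a fold of 12.3. It followed a mid early interval 988 bp away. The second, of 16891 bp at chr14:105609266-105626156, held 9 pieces with a fold of 9.77. The third, of 15242 bp at chr16:600994-616235, held 8 pieces with a fold of 7.98 and lay within 429 bp of early intervals on both sides. In all, 1708 early intervals (4.08%, exact 95% interval 3.89% to 4.27% for counting error only) were at least 3 kb wide. Of the early intervals, 457 (1.09%) were both that wide and at least 10-fold enriched. Over all classes the corresponding shares were 3.94% and 0.998%. On single chromosomes the share of early intervals at least 3 kb wide ran from 0.394% on chromosome 13 to 6.28% on chromosome 17. In the mid early class 4.90% were at least 3 kb wide and in the very early class 2.84%.

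Early intervals formed unbroken series, called runs here, in which each interval was followed by another of the early class. There were 5052 such runs, with a median of 5 intervals over 31.2 kb. Single early intervals between other classes made up 865 runs (17.1%) but only 2.07% of early intervals. Runs of the very early, mid early and mid late classes also had a median of 5 intervals. Single intervals made up 17.8%, 17.4% and 19.4% of the runs in these classes. Early runs of 20 to 49 intervals were 9.66% of the early runs and held 33.2% of the early intervals. The 39 runs of 50 or more held 2380 intervals (5.68%). The run with most intervals held 114 over 410 kb at chr15:66161674-66572154, between very early intervals on both sides, and 25.1% of its length was covered. The second held 113 intervals over 524 kb at chr17:70090986-70614661, covering 14.05% of it. The third held 81 over 291 kb at chr11:64176784-64468217, between mid early intervals, and had the highest coverage of these runs at 36.7% and a median fold of 5.48.

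The longest runs were sparse rather than crowded. The longest spanned 859 kb at chr15:56860734-57719327 with only 29 intervals and a gap of 327 kb inside it. The next spanned 768 kb at chr10:116787733-117555606 with 8 intervals, which covered 0.355% of it, and held a gap of 355 kb. The third spanned 683 kb at chr14:90040782-90723469 with 19 intervals and followed a mid late interval. Such gaps were uncommon. Of 36830 gaps between consecutive early intervals, 29.1% were under 1 kb, 84.7% under 10 kb, and 216 were 100 kb or more.

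The early class is defined between its neighbouring classes in the order of replication, so meeting mostly those classes largely follows from the classification. Of the 10098 sides on which an early interval met another class, 5688 (56.3%) faced the mid early class and 4187 (41.5%) the very early class. These 2 classes held 48237 and 23090 intervals. The mid late class took 213 sides, the late class 9 and the very late class 1. Runs with very early intervals on one side and mid early on the other were the most frequent, at 1966 of 5052 (38.9%), and held 18083 early intervals (43.2%). Another 1789 runs (35.4%) lay between mid early intervals, where the early run is the earliest stretch of its neighbourhood. The 1083 runs (21.4%) between very early intervals are the opposite, later than both of their sides. The 208 runs that met the mid late class or a later one on 1 or both sides were small, with a median of 2 intervals, and their 656 intervals had a median width of 404 bp, a median fold of 4.35 and a median distance of 6713 bp to the nearest interval. How finely the timing data were binned is unknown, so run lengths also reflect the classification.

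**Figure D2:**
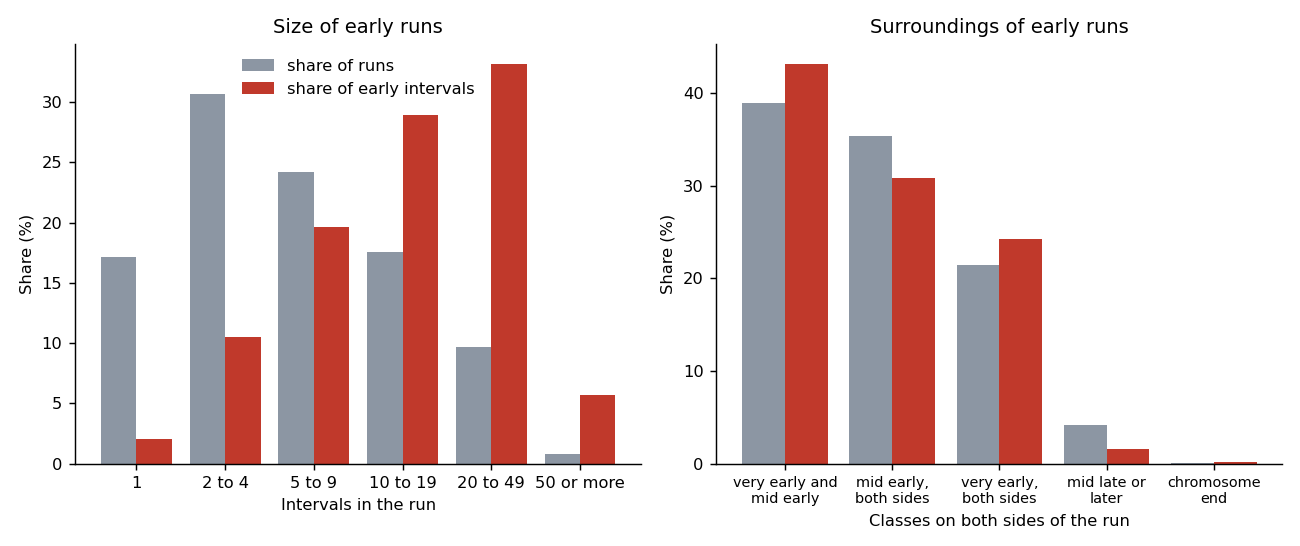
Share of the 5052 early runs (grey) and of the 41882 early intervals (red) by the number of intervals in the run (left) and by the classes on both sides of the run (right), in percent. Runs of 20 to 49 intervals hold 33.2% of early intervals, and runs between a very early and a mid early side hold 43.2%.

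Width, fold and spacing of early intervals did not differ past the threshold between these surroundings. In 1353 runs of at least 4 intervals with a very early and a mid early side, the intervals nearer each side were compared (8109 on each). Median width on a chromosome was 568 ± 101 bp on the very early side and 591 ± 103 bp on the mid early side (mean ± SD, n = 23 chromosomes), a ratio of 0.960, narrower on 17 of 23 (sign-flip permutation test, two-sided, adjusted p = 0.0757). The distance to the nearest interval was 1.10-fold longer on the very early side, longer on 16 of 23 (permutation test, adjusted p = 0.0628). Fold enrichment was 4.81 ± 0.31 and 4.79 ± 0.30 (permutation test, adjusted p = 0.938). With 5 Mb left out at both ends of every chromosome, width and distance passed the threshold, with log2 ratios of −0.072 and 0.15 (permutation test, adjusted p = 0.0223 and 0.0255). Runs between very early intervals and runs between mid early intervals had median widths of 577 ± 102 and 555 ± 92.3 bp and folds of 4.76 ± 0.30 and 4.76 ± 0.25 (permutation tests, adjusted p = 0.318 and 0.976). This width difference passed without the chromosome ends (log2 ratio 0.12, permutation test, adjusted p = 0.00502).

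These tests flip the sign of each chromosome's difference at random, 100000 times. They ask whether a difference recurs over the chromosomes of 1 peak set, and chromosomes are not biological replicates. Chromosomes with at least 20 intervals in both sets were used, and Benjamini-Hochberg adjustment covered 20 comparisons of the early class with the other classes. The 17 comparisons of density, run surroundings and chromosome ends were added once the data had been examined and were adjusted among themselves.

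Early intervals lay more densely within their own territory than those of every class except the mid early class, from which the difference did not pass the test. Territory is taken here as all DNA that lies nearer to an interval of a class than to one of another class. By this measure the early class held 455 Mb (15.4% of the total) with 92.04 intervals per Mb. The mid early class had 79.8 per Mb and the very early class 79.4, the mid late class 45.5, the late class 18.5 and the very late class 10.9. On single chromosomes the early density ranged from 25.7 per Mb on chromosome X to 195 on chromosome 19. The early class was the densest on 11 of 23 chromosomes, the mid early class on 10 and the very early class on 2.

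Averaged over chromosomes, early density was 94.4 ± 45.8 per Mb against 77.9 ± 36.5 for the very early class (mean ± SD, n = 23). This was 1.21-fold higher, with 21 of 23 chromosomes higher (adjusted p = 4.25e-05 by permutation test). It was 1.72-fold higher than in the mid late class, on 22 of 23 chromosomes, and 4.18-fold higher than in the late class, on 23 of 23 (permutation test, adjusted p = 4.25e-05 for both). Against the very late class it was 7.12-fold higher on 21 of 21 chromosomes (permutation test, adjusted p = 4.25e-05). Against the mid early class, at 89.9 ± 50.1 per Mb, it was 1.07-fold higher on 13 of 23 chromosomes, which did not pass (permutation test, adjusted p = 0.112). Without the first and last 5 Mb this difference passed, with a log2 ratio of 0.19 (permutation test, adjusted p = 0.00786). Territories are drawn from the intervals themselves and include stretches that cannot be sequenced, such as centromeres. With gaps counted only up to 100 kb, the early class held 103 intervals per Mb, the mid early class 96.5 and the very early class 86.9. The mean log2 ratio of early to mid early density over chromosomes was then 0.0044 (permutation test, adjusted p = 0.976). Against the mid late, late and very late classes the log2 ratios fell from 0.78, 2.06 and 2.83 to 0.41, 1.202 and 1.62, and still passed (permutation tests, adjusted p = 8.5e-05, 5.67e-05 and 5.67e-05).

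**Figure D3:**
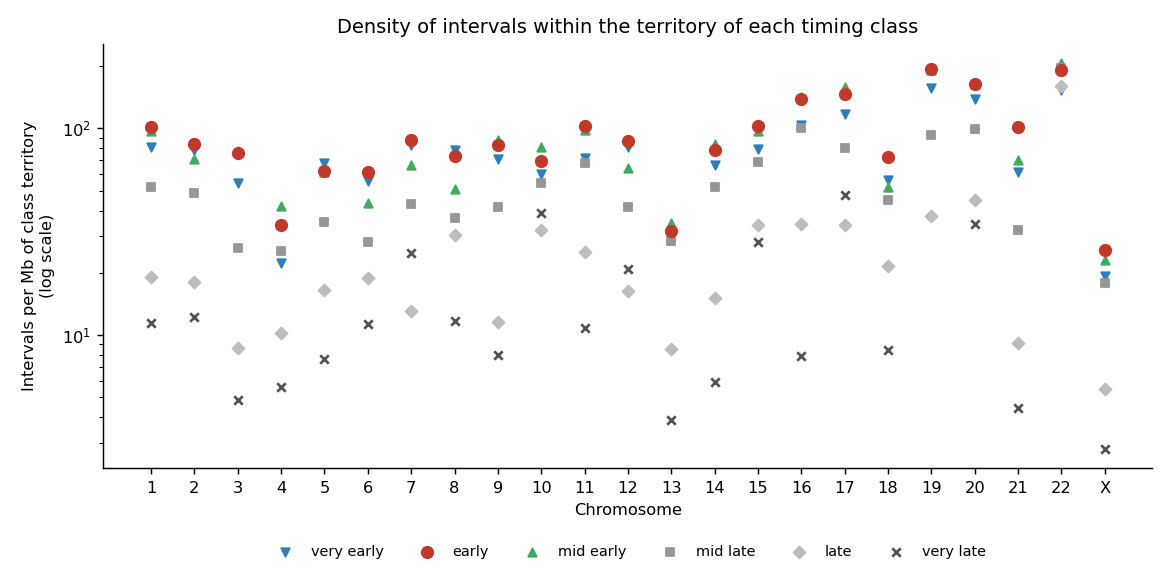
Intervals per Mb of the territory of each timing class (log scale) on chromosomes 1 to 22 and X, 1 symbol per class with early intervals as red circles; classes with fewer than 20 intervals on a chromosome are not drawn. Early density runs from 25.7 on chromosome X to 195 on chromosome 19 and lies above the late class on 23 of 23 chromosomes.

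Early intervals were wider and more enriched than very early ones and than those of the 2 latest classes. Chromosome medians of width averaged 560 ± 88.3 bp in the early class (mean ± SD, n = 23 chromosomes). They were 1.09-fold those of very early intervals (wider on 20 of 23) and 1.24-fold those of the late class (wider on 21 of 23; permutation tests, adjusted p = 2.86e-05 for both). Against the very late class the ratio was 1.36, on 20 of 21 chromosomes (permutation test, adjusted p = 1.11e-04). Fold enrichment differed less, by 1.04-fold from the very early class on 22 of 23 chromosomes, by 1.07-fold from the late class on 21 of 23 and by 1.09-fold from the very late class on 19 of 21 (permutation tests, adjusted p = 2.86e-05, 5e-05 and 2.86e-05). Compared within 4 bins of −log10 q, the early class stayed wider than these classes (log2 ratios 0.099, 0.21 and 0.34; permutation tests, adjusted p = 1e-04, 4.8e-04 and 5.33e-04). The fold differences did not pass in these bins (log2 ratios 0.0065, 0.0042 and 0.0035; permutation tests, adjusted p = 0.0528, 0.748 and 0.768), where fold and −log10 q come from the same peak.

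Early intervals were closer to their neighbours than very early ones, by 0.795-fold, with 20 of 23 chromosomes below 1 (adjusted p = 2.86e-05 by permutation test). Early intervals had a median distance of 1666 ± 936 bp, and very early ones of 2164 ± 1564 bp (mean ± SD over chromosomes). It was 2.10-fold longer in the late class and 4.197-fold longer in the very late class, longer on 21 of 23 and 21 of 21 chromosomes (permutation tests, adjusted p = 2.86e-05 for both). The share of an interval in pieces shared by both libraries averaged 60.2 ± 1.65% in the early class (n = 23), and it differed from the very late class by 1.64 percentage points (higher on 13 of 21 chromosomes, permutation test, adjusted p = 0.0451). Without the chromosome ends this difference no longer passed (1.74 points, permutation test, adjusted p = 0.103). It fell to 0.045 points where a peak covered at least 50% of the interval, and changed sign at a −log10 q of at least 5 (−0.92 points) and within bins of −log10 q (−0.31 points), none of which passed. The other 4 comparisons of this share did not pass (differences from −0.47 to 1.16 points, permutation tests, adjusted p from 0.224 to 0.923).

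Differences from the mid early and mid late classes were smaller. Early intervals were 0.945-fold as wide as mid early ones (narrower on 18 of 23 chromosomes), 0.984-fold as enriched (lower on 17 of 23) and 1.14-fold farther from a neighbour (15 of 23; permutation tests, adjusted p = 0.00426, 0.0172 and 0.0172). From the mid late class they did not differ past the threshold, with ratios of 1.04 for width, 1.01 for fold and 0.956 for distance (permutation tests, adjusted p = 0.190, 0.190 and 0.591). Chromosome ends changed both comparisons. Without the first and last 5 Mb, the early and mid early classes no longer differed past the threshold (log2 ratios −0.017, −0.012 and 0.047; permutation tests, adjusted p = 0.592, 0.35 and 0.537). There the early class was wider, more enriched and closer set than the mid late class (log2 ratios 0.17, 0.052 and −0.46; permutation tests, adjusted p = 0.00113, 0.00112 and 0.00113).

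**Figure D4:**
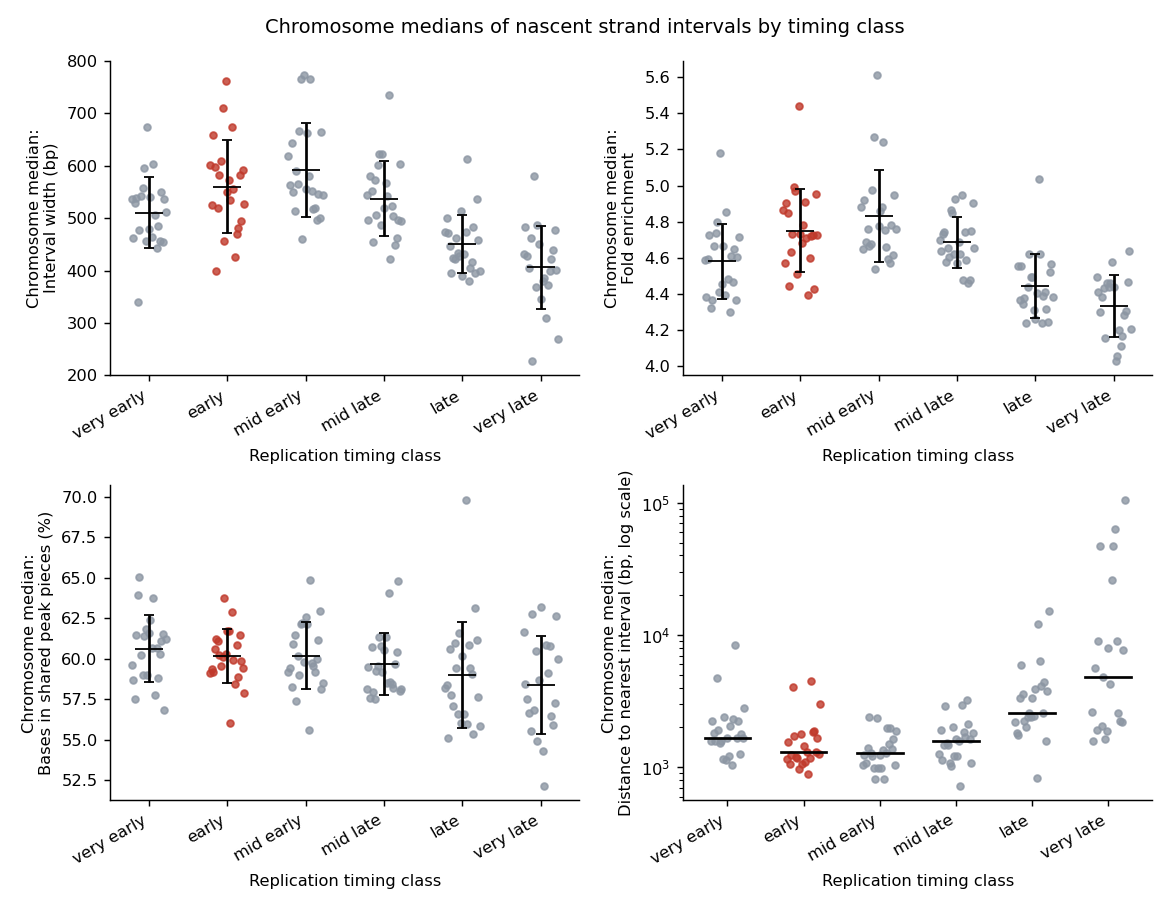
Chromosome medians of width (bp), fold enrichment, share of bases in shared pieces (%) and distance to the nearest interval (bp, log scale) in the 6 timing classes, 1 point per chromosome with at least 20 intervals (early in red). Bars are the mean and SD over chromosomes, and the median in the distance panel; early widths average 560 bp and lie between those of the very early class (511 bp) and the mid early class (592 bp).

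Early intervals were less frequent at chromosome ends than those of all classes together, and those at the ends were wider and more enriched than the rest of the class. Ends were set here from the outermost intervals of each chromosome, which need not lie at its physical end. The first and last 5 Mb, counted from the outermost intervals, held 12.7% of early intervals (5337), against 18.5% of all intervals, 19.6% of mid early and 28.02% of mid late ones. The share was lower still in the very early class, at 8.19%. The early class made up 17.8% of the intervals at the ends and 27.7% elsewhere. Median width at the ends was 649 ± 151 bp, against 537 ± 104 bp for the rest (mean ± SD of chromosome medians, n = 23), wider on 16 of 23 chromosomes (ratio 1.196, permutation test, adjusted p = 0.0131). Median fold was 4.97 ± 0.45 against 4.68 ± 0.27, higher on 17 of 23 (ratio 1.06, permutation test, adjusted p = 0.0188). Their distance to the nearest interval was 0.754-fold that of the rest, shorter on 15 of 23, and did not pass (permutation test, adjusted p = 0.0722). The other classes were not split in this way, so these differences are not shown to be particular to the early class. Without the ends, the log2 width ratio of early to mid early intervals moved from −0.082 to −0.017. That of early to mid late intervals moved from 0.054 to 0.17.

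The share of early intervals averaged 24.3 ± 6.25% over chromosomes (mean ± SD, n = 23). It was highest on chromosomes 17, 19 and 22, with 35.7%, 34.6% and 31.5% of their intervals. Chromosome 3 came next with 31.0%, and gene content was not analysed here. The share was lowest on chromosomes 13, 4 and X, with 12.5%, 12.7% and 14.8%. Chromosome 1 held the most early intervals, 4784, and chromosome 13 the fewest, 254. Early intervals were found in 88.9% of the 1 Mb windows with any interval on chromosome 22 but in 32.4% of those on chromosome 4.

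Chromosomes with a larger early share also had wider, more enriched and closer early intervals. The median width of early intervals was 400 bp for chromosome 13 and 762 bp for chromosome 19, the extremes, and the median fold ran from 4.40 on chromosome 4 to 5.44 on chromosome 19. The median distance to the nearest interval was 889 bp on chromosome 22 and 4465 bp on chromosome 4. These contrasts were not particular to the early class. Median widths on chromosomes 13 and 19 were 340 and 675 bp for very early and 514 and 773 bp for mid early intervals. Median distances on chromosomes 22 and 4 were 1042 and 8418 bp for very early and 810 and 1985 bp for mid early intervals. Across the 23 chromosomes the early share correlated with width (Pearson r = 0.81, Spearman rho = 0.79), with fold (0.73 and 0.75) and with distance (−0.81 and −0.80). Without chromosomes 13 and 17, the farthest from the median share, Pearson r was 0.73, 0.69 and −0.77. These are 3 of 5 relations computed, given as descriptions, since chromosomes share both libraries and differ together in base composition and gene content. The copy number of the chromosomes in these cells was not analysed here. Chromosome X combined a low early share with a median width of 528 bp, above the 425 bp of chromosome 4.

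**Figure D5:**
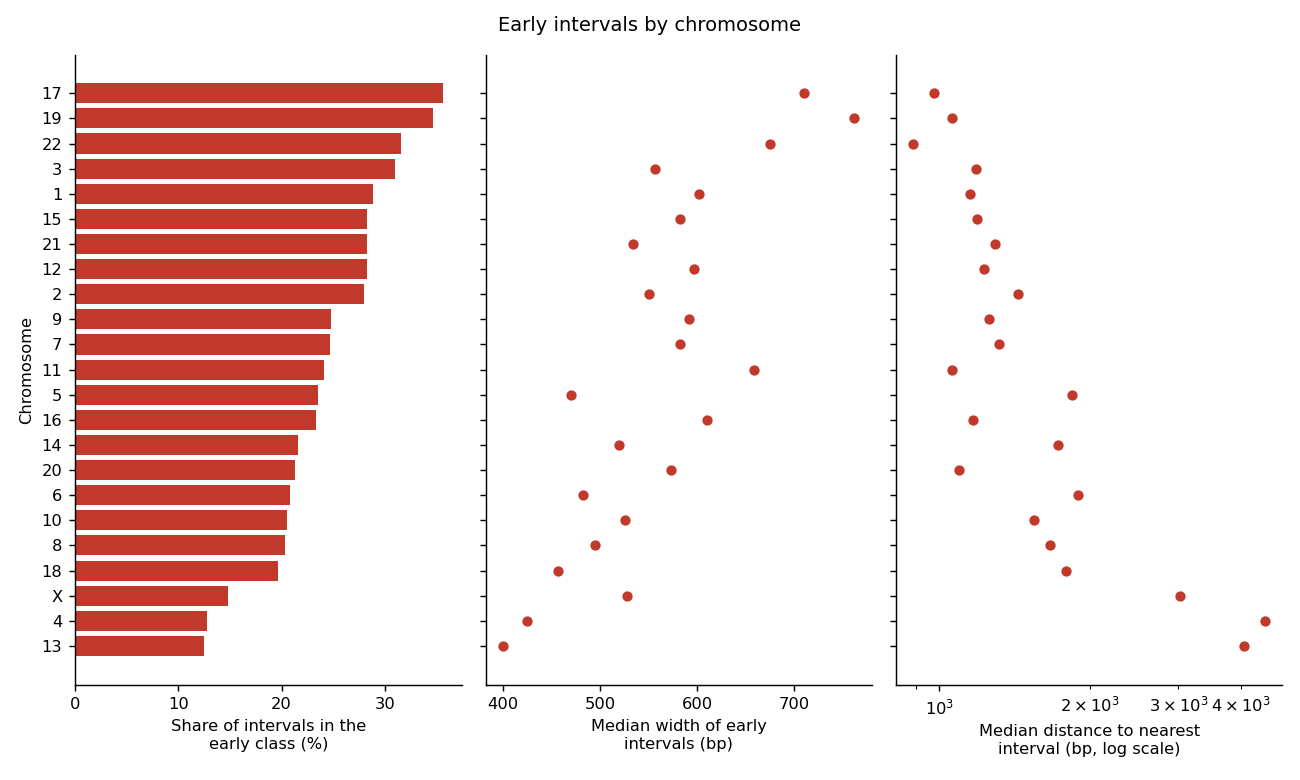
Share of each chromosome's intervals in the early class (bars, %), median width of its early intervals (bp) and their median distance to the nearest interval (bp, log scale), with chromosomes ordered by share. Chromosomes 17, 19 and 22 lead with 35.7%, 34.6% and 31.5%, and chromosomes X, 4 and 13 have the lowest shares and the longest distances.

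Early intervals were concentrated in few 1 Mb windows, counted over all chromosomes together. Of 2842 windows of 1 Mb that held an interval, 1499 (52.7%) held an early one, with a median of 15. The richest 234 of these windows (15.6%) held 50% of all early intervals, and 64 windows with 100 or more held 18.8%. The median window with an early interval held 73 of them on chromosome 19 and 4 on chromosome X. Differences between chromosomes therefore enter this count. The other classes were not counted in this way. The window with most early intervals was chr22:37000001-38000000, with 215 of its 286 intervals in the early class, which covered 28.5% of it. Next came chr11:69000001-70000000 with 170 of 251 and chr11:64000001-65000000 with 165 of 243. In the 3 windows the median width of early intervals was 810, 914 and 976 bp and the median fold 4.88, 5.39 and 5.87, each above the class medians of 587 bp and 4.81. None of these windows held a mid late interval, and the others in them were very early or mid early.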

How the data were processed

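The members, measures and comparisons were chosen with earlier results of these data known. Per the submitters' processing notes, BWA, MACS2 and the hg19 build were used. Versions, parameters and any control library are not given. In the deposited peak list, fold enrichment is a ratio that the authors' peak caller gave for each replicate 1 peak, and the −log10 q values deposited by the authors describe the same peak. The score deposited in the 6 interval lists is a constant and was not used. The authors had intersected both libraries before they deposited the lists.

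The fold and −log10 q of an interval are those of the replicate 1 peak with the largest overlap, of 1 bp or more. All pieces of a peak on the chromosome counted together. Distances run from edge to edge, to the nearest interval of any class. The per-chromosome value was the log2 ratio of medians, or their difference in percentage points for shared bases. Its mean over chromosomes was compared with 0 by flipping signs at random, a permutation test run two-sided (100000 resamples; 2000 with each chromosome left out). The smallest unadjusted p this can give is 1e-05. For width against the mid late class, the test was checked on simulated data, with widths shuffled among the intervals of each chromosome. Shuffling removes any clustering of widths along a chromosome, and the other comparisons were not simulated. Named intervals were the 5 of highest fold and the 3 widest. Also named were the 3 runs with most intervals, the 3 longest runs, the 3 windows with most early intervals, and the 3 chromosomes at each end of the range of shares. Run surroundings, density and chromosome ends were added after the data were examined. GC content, gene starts, fixed gene lists and sequences were planned for a matching genome build and were not analysed here. Versions were matplotlib 3.10.9 for figures and scipy 1.17.1, pandas 2.3.3, numpy 2.4.6 and Python 3.11.15 for the rest.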

Additional observations from a re-analysis of the deposited data

Results flagged for a closer look

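The early list held 5 intervals placed on chromosome Y. They are given here because they lie outside the chromosomes analysed. They lay between Y positions 465627 and 2370485 (hg19), with widths of 355 to 1385 bp and folds of 3.28 to 7.75. That end of chromosome Y is known to carry a pseudoautosomal region, whose sequence is shared with chromosome X. Whether the reads came from chromosome X or Y was not tested, so these intervals do not show initiation on Y.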

How the results depend on the processing

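Values here are log2 ratios (percentage points for shared bases), early against the other class. Of 125 values from 7 other settings for 20 comparisons, 95 kept their direction and side of the threshold, 12 lost it, 6 gained it and 12 changed sign. Of 35 values for the 17 added comparisons, 28 were kept, 4 gained the threshold and 3 changed sign. Except for fold within bins of −log10 q, the tested differences in width, fold and distance from the very early, late and very late classes passed under all 7 settings.

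At a −log10 q of at least 5, width (−0.021) and distance (0.12) changed sign against mid late, as did shared bases against mid early (0.38) and very late (−0.92), and fold against mid early (−0.017) was lost. With a peak over at least 50% of the interval, shared bases changed sign against mid early (0.15) and late (−0.054) and were lost against very late (0.045), and fold against mid early (−0.025) was lost. At 200 bp or more, shared bases against very early changed sign (0.063) and against late passed (2.25).

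Without the first and last 5 Mb, early against mid early was lost for width (−0.017), fold (−0.012) and distance (0.047), and shared bases changed sign (0.022). Against mid late, width (0.17), fold (0.052) and distance (−0.46) passed. Shared bases passed against late (1.62) and were lost against very late (1.74). Density against mid early passed (0.19), as did width (−0.072) and distance (0.15) between run sides and width between surroundings (0.12), whose distance changed sign (−0.21).

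Within bins of −log10 q, fold was lost against very early (0.0065), mid early (−0.0013), late (0.0042) and very late (0.0035) and changed sign against mid late (−0.0037). Shared bases passed against very early (−1.23) and changed sign against mid early (0.43), late (−0.45) and very late (−0.31), and distance against mid early was lost (0.15). On autosomes, fold between run sides (−0.0035) and between surroundings (−0.011) changed sign. With every line counted the early share was 22.8%. Only 1 early name stood on 2 lines, so nearly all lines joined by name were in the other lists. How this joining affected the widths, densities and distances of those classes was not tested. With each chromosome left out in turn, shared bases against very late had an unadjusted p of at least 0.05 in 6 cases (highest 0.059, without chromosome 20), and no other of the 13 differences past the threshold was lost.

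No paired analysis was possible because the lists hold 1 intersected set, whose peak values are those of replicate 1 only. Leaving out a replicate was impossible for the same reason. Read depth per interval is unknown and limits every value.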
